A study of Rattus norvegicus with 16 samples.

Results

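A list of 10 genes of cell cycle control, stress response, cell death and activin binding was drawn up. The 9 of them with a row of their own in the array table are described here, of 13215 genes with such a row. They are Gadd45a, Gadd45b and Gadd45g of the GADD45 family, the cyclin-dependent kinase inhibitors Cdkn1a (p21) and Cdkn1b (p27), the cyclin Ccnd1, the stress protein Nupr1, the activin antagonist Fst (follistatin) and the pro-apoptotic Bcl2l11 (BIM). A gene was taken where the array annotation gave exactly 1 symbol for the row, and by its brightest row over the 16 arrays. Btg2, the remaining gene of the list, was not analysed here. The arrays hold liver RNA of 16 male Sprague Dawley rats, 1 array per rat, in 4 groups of 4. Fed rats were compared with rats fasted to phase 2 (P2), rats fasted to phase 3 (P3) and rats that were fasted to phase 3 and then fed again for 2 days (P3r2, here called re-fed). In phase 2 of a long fast the body runs mainly on fat and spares protein, and in phase 3 protein breakdown rises. The sources used here give neither the age of the rats nor the length of the fasts.

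GADD45 proteins are small stress-induced proteins that bind p21, the proliferating cell nuclear antigen and the kinase MAP3K4. Cyclin D1 carries cells out of G1 with its kinase partners, and p21 and p27 block cyclin-dependent kinases. Follistatin is a secreted protein, made in the liver among other tissues, that binds activins and keeps them from their receptors, and its expression is known to rise when glucagon is high and insulin low. BIM is a BH3-only protein that antagonises BCL2 and its kin, and FoxO transcription factors, which insulin restrains, can induce it.

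The values are log2 signals, on which 1 unit is a doubling. Changes are log2 differences between group means ± the standard error of a limma fit over all 13947 annotated rows, with 4 arrays in each group, and "called" stands for a Benjamini-Hochberg adjusted p below 0.05 over these rows. The list was chosen by a rule that used measured values, as the genes were selected on earlier results of these data, among them the rise of Gadd45b and Fst at P3 and the fall of Ccnd1 at P2. Differences among fed, P2 and P3 livers, and those of re-fed against P3 livers, are therefore given as descriptions with no p for these genes, and nothing is read from how many were called there. The gene lists below were also chosen with earlier results of these data known. In the same comparisons the differences of their genes are therefore descriptions too, with no p. Called or not called in any of these comparisons marks the side of the threshold on which a value fell, and is no test. Re-fed livers were tested against fed and P2 livers, other than Ccnd1 against P2, which is a description as well. The fed and P2 livers of these tests are those of the earlier results, so the tests are not fully independent of the choice of genes. Over the annotated rows, the median signal of the arrays lay between 4.93 and 5.17 and the standard deviation between 2.16 and 2.39, with fed 2, P2 4 and P3 3 the narrowest (2.16, 2.18 and 2.22). Signals below these medians are not shown to be above background, for any gene below. Among such means are those of Map3k5, E2f5 and Btg3 in fed livers (4.25, 4.38 and 4.03) and that of Inhbe in P3 livers. In bulk tissue, fewer cells of a type and less RNA per cell cannot be told apart.

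At P3, 7 of the 9 genes were called above the fed livers and 1 below them, as were 15% and 10.7% of all rows. Gadd45b had the largest change, 6.12 ± 0.17, followed by Fst with 4.71 ± 0.18, and Ccnd1 was the one that was lower. At P2, 3 genes were called higher (Gadd45b, Cdkn1b and Nupr1) and 1 lower (Ccnd1) than in fed livers, against 8.05% and 9.15% of all rows. The median change of the 9 genes was 2.53 at P3 and 0.39 at P2, where that of all 13215 genes was 0.04 in both comparisons, which share the fed arrays. Between P2 and P3, 6 were called higher and 1 lower (18.1% and 11.1% of all rows). From P3 to the re-fed state, 7 were lower and 1 higher (10.6% and 14% of all rows). Against fed livers, 1 gene was called higher after re-feeding (Nupr1) and 1 lower (Cdkn1a), beside 3.61% and 0.76% of all rows. Against P2 livers, 1 was higher (Ccnd1, as a description) and 3 were lower (Gadd45b, Cdkn1a and Cdkn1b; 15.6% and 5.68% of all rows).

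**Figure D1:**
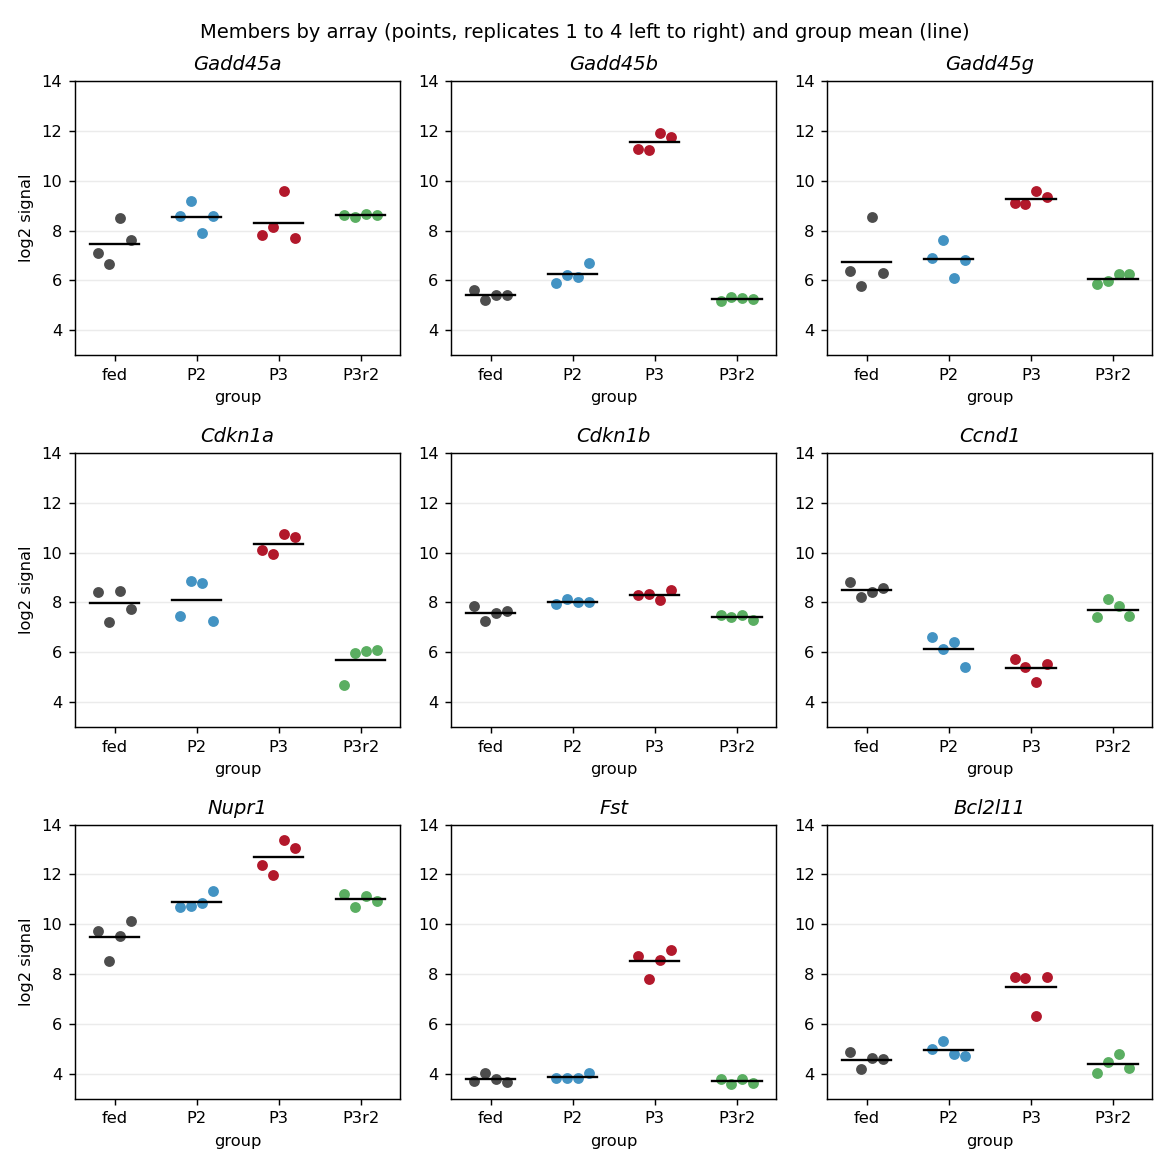
Log2 signal (vertical axis) of the 9 genes on each of the 16 arrays, by group (horizontal axis); the points of a group are its 4 arrays and the line is its mean. Gadd45b and Fst are high in the 4 P3 livers alone (11.24 and 7.82 or more), Cdkn1a is lowest after re-feeding, and Nupr1 is lowest in fed livers.

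As a check of the labelled tissue, the hepatocyte marker Alb, albumin, read between 12.98 and 13.53 on all 16 arrays. The marker counts at P3 below stand beside 15.5% of all genes called higher than in fed livers and 10.8% lower. Of the 6 hepatocyte markers measured (of 8), 2 fell at P3, Asgr1 (-1.09 ± 0.32) and Ttr (-0.80 ± 0.10), and the log2 of their summed signal lay between 15.02 and 15.28 in fed and between 14.93 and 15.08 in P3 livers. Of 8 measured markers of stellate cells and fibroblasts (of 10), 1 rose and 3 fell at P3: Dcn, decorin, rose by 3.80 ± 0.39, and Col3a1 (-1.65 ± 0.50), Lrat (-1.28 ± 0.22) and Pdgfrb (-1.22 ± 0.23) fell. Their summed signal lay between 10.44 and 11.13 in fed, 9.96 and 10.34 in P2, 10.48 and 11.81 in P3, and 10.03 and 10.64 in re-fed livers. Of 9 macrophage markers (of 10), 2 rose at P3, the complement genes C1qb (0.89 ± 0.27) and C1qc (0.79 ± 0.27), with a summed signal of 10.54 to 11.62 in fed and 11.12 to 11.80 in P3 livers. Of 8 neutrophil and monocyte markers and 3 endothelial markers (of 9), 1 each was lower at P3. The changes at P3 of 6 lymphocyte markers (of 10) ran from -0.35 to 0.05, those of 5 cholangiocyte markers (of 8) from -0.44 to 0.59, and that of 1 erythroid marker (of 7) was -0.29. The part of these cells in the values that follow was not tested.

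The GADD45 genes differed in pattern. Gadd45b (transcript cluster 7322066) read 5.63, 5.23, 5.40 and 5.41 in the fed livers and 5.90, 6.24, 6.14 and 6.70 at P2. At P3 it read 11.26, 11.24, 11.90 and 11.74, and after re-feeding 5.17, 5.35, 5.31 and 5.25. The P3 livers lay more than 4 units above every other liver, while re-fed and fed livers overlapped. As a ratio, the P3 mean was 69.6-fold the fed mean and 39.3-fold the P2 mean. The P2 difference from fed was smaller, 0.83 ± 0.17, with every P2 liver above every fed liver. Re-fed livers did not differ detectably from fed ones (-0.15 ± 0.17, 95% interval -0.51 to 0.22, adjusted p = 0.79, limma). They lay below P2 livers (-0.97 ± 0.17, adjusted p = 0.0016, limma; every re-fed liver below every P2 liver).

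Gadd45g (transcript cluster 7162363) was high at P3 as well. Its fed values were 6.38, 5.77, 8.54 and 6.30, so that fed 3 read over 2 units above the other fed livers. The P2 livers had 6.90, 7.61, 6.10 and 6.83, the P3 livers 9.12, 9.05, 9.57 and 9.36, and the re-fed livers 5.85, 5.96, 6.25 and 6.25. All 4 P3 livers were above all others, by 2.53 ± 0.45 over the fed mean and 2.41 ± 0.45 over the P2 mean. P2 and fed livers overlapped and their means differed by 0.12 ± 0.45. The re-fed against fed difference was -0.67 ± 0.45 and was not called (95% interval -1.62 to 0.28, adjusted p = 0.53, limma). Without fed 3 it was -0.072, and the P2 difference from fed was 0.71, neither called.

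Gadd45a (transcript cluster 7265600) did not share the P3 peak. It read 7.10, 6.66, 8.51 and 7.63 in fed livers and 8.57, 9.18, 7.88 and 8.57 at P2. The P3 livers had 7.81, 8.13, 9.59 and 7.72 and the re-fed livers 8.63, 8.53, 8.66 and 8.63. The 3 later groups overlapped one another, and the re-fed group was the one that lay wholly above the fed livers. The differences from fed were 1.08 ± 0.41 at P2, 0.84 ± 0.41 at P3 and 1.14 ± 0.41 after re-feeding, and none was called (adjusted p = 0.14 for the re-fed livers, limma, and 0.017 with array weights). Single arrays weighed on these values. Without fed 3, the highest fed liver, the differences at P2 and P3 were 1.42 and 1.19, and both were called. Without P3 3, the highest P3 liver, the P3 difference was 0.42, and without the 3 arrays of narrow spread it was 0.15, neither of them called. The P2 difference was called without P3 3, with array weights and in the brighter rows. The re-fed livers were the most even of the 4 groups, with an SD of 0.055 against 0.79 in fed livers.

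Promoter windows of the GADD45 genes with a P3 peak are shown here, and those of other genes with their values, so that the letters of genes that were high at P3 can be set side by side. A window runs from 250 bases before to 50 bases after the start that RefSeq gives on assembly GRCr8, and 7 of the 9 genes have one in the table used. The array files name no build, so these positions are RefSeq's alone. The Gadd45b window is on the minus strand of chr7:9430669-9430968, and its capitals mark GC boxes (GGGCGG) and CCAAT boxes on either strand. The Gadd45g window is on the minus strand of chr17:13530302-13530601, and its capitals mark the composite motif of ATF4 and C/EBP factors (TGATGCAA, on either strand).
Gadd45b: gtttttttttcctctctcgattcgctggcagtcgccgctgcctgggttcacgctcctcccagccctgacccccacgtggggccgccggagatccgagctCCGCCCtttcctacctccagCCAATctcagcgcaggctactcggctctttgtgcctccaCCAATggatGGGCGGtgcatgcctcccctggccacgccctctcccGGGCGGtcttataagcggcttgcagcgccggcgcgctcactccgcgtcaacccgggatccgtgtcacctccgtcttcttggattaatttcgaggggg
Gadd45g: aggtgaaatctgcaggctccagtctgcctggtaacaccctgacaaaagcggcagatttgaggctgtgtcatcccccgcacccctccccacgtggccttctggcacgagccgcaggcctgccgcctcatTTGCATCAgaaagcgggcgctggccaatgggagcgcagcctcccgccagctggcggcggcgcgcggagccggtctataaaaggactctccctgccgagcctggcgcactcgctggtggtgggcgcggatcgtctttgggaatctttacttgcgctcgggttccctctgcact
The Gadd45b window held 3 GC boxes and 2 CCAAT boxes, and 34.9% and 37.7% of 27457 RefSeq promoter windows hold at least 1 of each. The composite motif, 122 bases before the start of Gadd45g, is in 0.743% of them. A match of letters is a description and does not show a binding site.

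Of genes that work with GADD45 proteins or in the stress kinase cascades around them, 18 of 22 listed were measured, and at P3 against fed 8 rose and 3 fell, where 15.5% of all genes rose and 10.8% fell. Their median change was 0.26, where that of all genes was 0.04. Map3k5, the stress-activated kinase ASK1, rose by 3.25 ± 0.29, and Dusp1, a phosphatase that switches MAP kinases off, by 2.26 ± 0.28. Mapk9, the kinase JNK2, fell (-2.07 ± 0.21). Pcna, the sliding clamp of DNA polymerases and a partner of GADD45 proteins and p21, rose by 1.69 ± 0.31. Map3k4, the kinase that GADD45 proteins bind, was lower at P2 (-0.76 ± 0.19) and P3 (-0.56 ± 0.19). After re-feeding, Map2k6 (2.13 ± 0.29) and Map2k3 (1.12 ± 0.12), the kinases that activate p38, were above fed livers (adjusted p = 9.5e-04 and 1.6e-04, limma).

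Cdkn1a, the p21 gene, ended below its fed level after re-feeding. Cdkn1a (transcript cluster 7217282) read 8.41, 7.22, 8.45 and 7.75 in fed livers and 7.46, 8.87, 8.80 and 7.24 at P2, and these groups overlapped widely (0.13 ± 0.41). At P3 it read 10.10, 9.96, 10.73 and 10.63, above every other liver and 2.40 ± 0.41 over the fed mean. The re-fed livers read 4.68, 5.95, 6.03 and 6.08, below every other liver. The re-fed mean was 4.83-fold below the fed mean (log2 difference -2.27 ± 0.41, adjusted p = 0.0061, limma; lower in 4 of 4 arrays). It was also below the P2 mean (-2.40 ± 0.41, adjusted p = 0.0013, limma). Re-fed 1 read over 1 unit below the other 3. Without it the difference from fed was -1.94 (adjusted p = 0.023), and over all single arrays left out the adjusted p by limma lay between 0.0045 and 0.023. From P3 to the re-fed state the signal dropped 25.4-fold (-4.67 ± 0.41).

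The RefSeq window of Cdkn1a lies on the plus strand of chr20:7150682-7150981. It is shown because p21 is a well known target of p53, and its capitals mark a match to the p53 half-site, 201 bases before the start used.
Cdkn1a: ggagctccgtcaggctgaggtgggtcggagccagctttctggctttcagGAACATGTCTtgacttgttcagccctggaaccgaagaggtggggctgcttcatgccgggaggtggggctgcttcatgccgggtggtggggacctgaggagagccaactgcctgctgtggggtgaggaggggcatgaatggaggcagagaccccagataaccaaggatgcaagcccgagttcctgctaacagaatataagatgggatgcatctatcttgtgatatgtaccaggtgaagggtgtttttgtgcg
A p53 half-site is in 7.89% of all windows, and of the 7 windows of these genes that of Gadd45a holds one too, 48 bases before its start.

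Other p53 targets did not share one direction. Of 35 listed, 21 were measured. At P3 against fed 5 rose and 4 fell, beside 15.5% and 10.8% of all genes. The median of the list was 0.14, against 0.04 over all genes. Tp53inp1, a p53-induced nuclear protein that also takes part in autophagy, rose by 2.96 ± 0.20, and Plk3, a stress-induced kinase, by 2.38 ± 0.20. Ccng1, cyclin G1, rose by 1.15 ± 0.33, and Phlda3, an inhibitor of AKT that p53 induces, fell (-1.73 ± 0.43). Mdm2, the ligase that degrades p53, rose by 0.76 ± 0.16. After re-feeding, Plk3 was the 1 gene of the 21 called against fed livers (1.29 ± 0.20, adjusted p = 0.0023, limma). Of all genes, 3.72% were called higher there and 0.742% lower.

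To find genes of like pattern, each gene's 16 values were centred on their mean, and the root mean square difference to every other gene was taken. The 3 genes nearest to Cdkn1a were Tcp11l2, Pck1 and Pnrc1, at 0.70, 0.74 and 0.85 log2 units, where the median over all genes was 1.75. Pck1, the enzyme phosphoenolpyruvate carboxykinase of gluconeogenesis, had group means of 11.51, 11.69, 12.93 and 8.33 in fed, P2, P3 and re-fed livers. Pnrc1, a nuclear receptor coactivator, had 9.50, 9.71, 10.73 and 8.13 in the same order. Like Cdkn1a, all 3 had their highest mean at P3 and their lowest after re-feeding. They were picked for closeness to Cdkn1a on these same arrays, so this likeness is no separate result. Those nearest to Gadd45g were Dusp1, Tcp11l2 and Myc, the growth-promoting transcription factor, at 0.51, 0.62 and 0.62 log2 units, where the median over all genes was 1.37. Those nearest to Gadd45a were Phf5a, Atp5po and Lurap1l, at 0.41, 0.43 and 0.44 log2 units, where the median over all genes was 0.76.

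**Figure D2:**
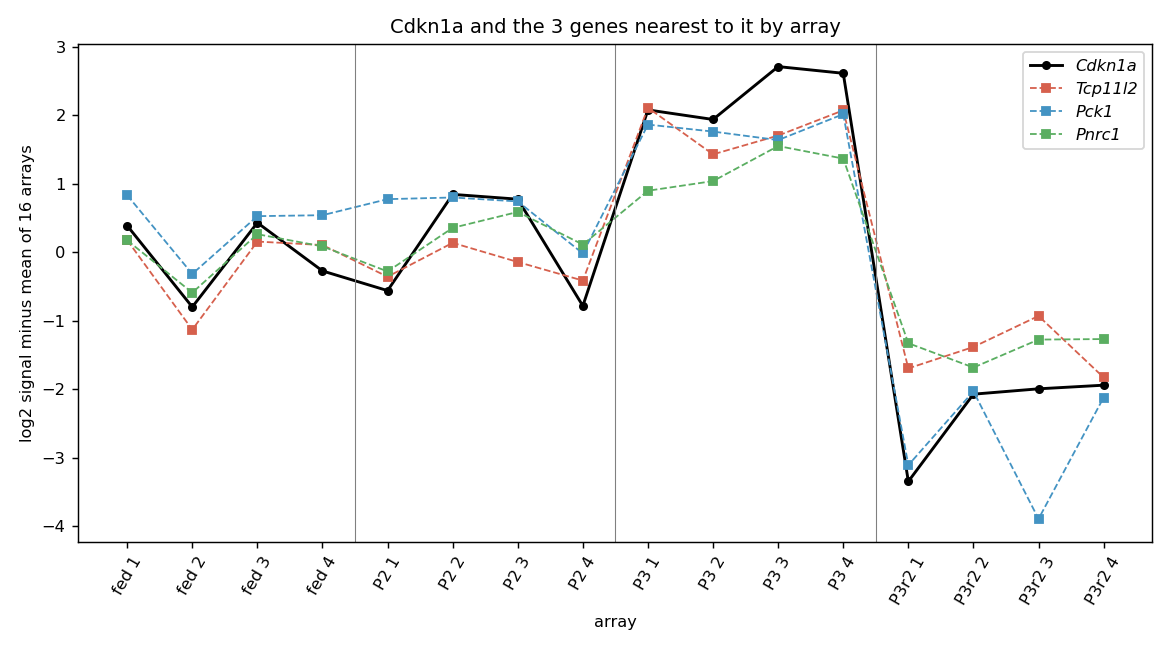
Log2 signal of Cdkn1a and of its 3 nearest genes on each array (horizontal axis), minus each gene's mean over the 16 arrays (vertical axis). All 4 genes have their highest group mean in P3 livers and their lowest in re-fed livers. The 3 were picked for their closeness to Cdkn1a on these arrays.

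Cdkn1b moved by smaller steps. It (transcript cluster 7259088) read 7.84, 7.26, 7.56 and 7.66 in fed livers and 7.94, 8.14, 8.02 and 8.0 at P2. The P3 livers had 8.28, 8.35, 8.10 and 8.48 and the re-fed livers 7.49, 7.41, 7.48 and 7.31. All P2 and P3 livers were above all fed and re-fed ones. The differences from fed were 0.45 ± 0.12 at P2 and 0.73 ± 0.12 at P3. At P2 the gene was not called without P2 2, in a fit of the 2 groups alone, or once the gene-length trend was removed. Over 13126 genes, the change at P2 against fed had a Spearman correlation of -0.29 with gene length, so shorter genes tended to read higher. The correlation was -0.05 for P3 against fed, 0.18 for P3 against P2 and 0.28 for re-fed against P2 livers. Re-fed livers did not differ detectably from fed ones (-0.16 ± 0.12, 95% interval -0.41 to 0.10, adjusted p = 0.61, limma) and were below P2 livers (-0.60 ± 0.12, adjusted p = 0.003). With quantile normalization the re-fed against fed difference was called (-0.37, adjusted p = 0.035, limma). The GADD45 genes are shorter than Cdkn1b (5228 bases), with 2303 for Gadd45a and Gadd45b and 1746 for Gadd45g. Over the 14 other settings, the removal of the length trend among them, the P2 difference of Gadd45b from fed lay between 0.61 and 0.997. That of Gadd45a lay between 0.80 and 1.14.

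Cyclin D1 ran the other way. Ccnd1 (transcript cluster 7059293) read 8.83, 8.22, 8.41 and 8.59 in fed livers and 6.60, 6.13, 6.39 and 5.41 at P2. The P3 livers had 5.75, 5.40, 4.81 and 5.54 and the re-fed livers 7.40, 8.15, 7.83 and 7.46. Fed livers were highest, re-fed livers next, and both fasted groups lowest, with no overlap between the re-fed group and any other. The mean was 5.21-fold below fed at P2 (-2.38 ± 0.26) and 8.80-fold below it at P3 (-3.14 ± 0.26). P2 and P3 livers overlapped, and their difference (-0.76 ± 0.26) was not called in a fit of these 2 groups alone, nor without any 1 of P2 1, P2 2, P2 3, P3 2, P3 3 and P3 4. Re-fed against fed livers had -0.80 ± 0.26, with every re-fed liver below every fed one, and an adjusted p of 0.096 by limma. That difference was called with quantile normalization (-1.0, adjusted p = 0.024, limma), median centring (-0.86, adjusted p = 0.049), array weights, array spread as a covariate, without the 3 arrays of narrow spread, and without P2 4. The adjusted p reached 0.12 with the other rows included.

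The genes nearest to Ccnd1 in pattern were Parp14, Trim5 and Elovl5, a fatty acid elongase, at 0.29, 0.30 and 0.33 log2 units, where the median over all genes was 1.33. Of other CDK inhibitors, G1 cyclins, retinoblastoma proteins and E2F factors, 16 of 30 listed were measured, and at P3 against fed 3 rose and 2 fell (median 0.22), shares near the 15.5% and 10.8% of all genes. E2f5, an E2F factor that represses, rose by 2.78 ± 0.32, and Rbl2, the pocket protein p130 of resting cells, by 0.96 ± 0.26. Ccnd2, cyclin D2, fell at P2 (-0.87 ± 0.25) and P3 (-1.20 ± 0.25), and was higher after re-feeding than at P3 (1.23 ± 0.25). At P2, Cdkn2a (0.84 ± 0.14), which encodes the inhibitor p16, and Cdkn1c (0.51 ± 0.13), the inhibitor p57, rose.

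Many genes of S, G2 and M phase were lower in both fasted groups. Of 20 measured members of 30 listed, 8 fell at P2, and 11 fell and 1 rose at P3. Of all genes, 9.4% fell at P2, and 10.8% fell and 15.5% rose at P3. The median change of the list was -0.37 at P2 and -0.45 at P3. Top2a, the topoisomerase of dividing cells, fell at P2 (-1.43 ± 0.23) and P3 (-1.51 ± 0.23). Cdc20, which activates the anaphase-promoting complex, had -1.16 ± 0.20 and -1.04 ± 0.20, and the proliferation marker Mki67 had -0.80 ± 0.14 and -0.87 ± 0.14. In fed, P2 and P3 livers Top2a read 3.99, 2.56 and 2.47 and Mki67 3.54, 2.74 and 2.68. These means lie below the array medians, as do those of Cdc20 at P2 and P3 (3.98 and 4.11) and of Kif20a in fed livers (3.55). Such signals are not shown to be above background. The replication helicase subunit Mcm7 rose at P3 (1.32 ± 0.23). After re-feeding, 6 genes were above P3 livers, among them Mcm5 (1.13 ± 0.17) and Tyms (0.87 ± 0.19), thymidylate synthase, and Mcm7 was below them (-1.08 ± 0.23). Of all genes, 14.2% were higher and 10.8% lower there. Against fed livers, Tyms was higher (0.72 ± 0.19, adjusted p = 0.043, limma) and 2 genes were lower, Cdc20 (-0.89 ± 0.20, adjusted p = 0.019) and the kinesin Kif20a (-0.36 ± 0.09, adjusted p = 0.03). Of all genes, 3.72% were higher and 0.742% lower against fed.

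**Figure D3:**
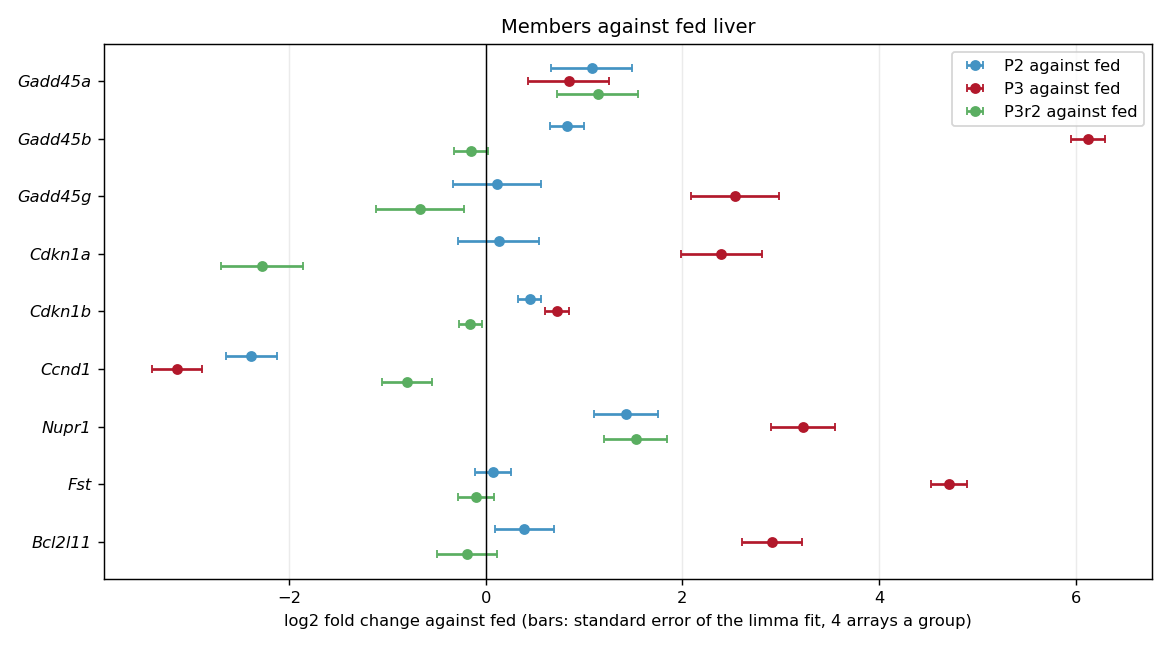
Log2 fold change (horizontal axis) of the 9 genes (vertical axis) in P2, P3 and re-fed livers against fed livers; bars are the standard error of the limma fit with 4 arrays a group. At P3, Gadd45b (6.12) and Fst (4.71) lie farthest to the right and Ccnd1 (-3.14) farthest to the left. Of the re-fed values, those of Cdkn1a (-2.27) and Nupr1 (1.53) were called.

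Nupr1 was above its fed level in every other group. Nupr1 (transcript cluster 7057283), a small stress-induced nuclear protein that ATF4 is known to induce, read 9.74, 8.52, 9.51 and 10.14 in fed livers and 10.70, 10.74, 10.84 and 11.34 at P2. At P3 it read 12.38, 12.00, 13.37 and 13.05, and after re-feeding 11.20, 10.71, 11.15 and 10.95. P3 livers were above all others, fed livers below all others, and re-fed and P2 livers overlapped. The mean was 2.69-fold fed at P2 (1.43 ± 0.32) and 9.35-fold fed at P3 (3.22 ± 0.32). The re-fed mean was 2.88-fold the fed mean (1.53 ± 0.32, adjusted p = 0.015, limma; higher in 4 of 4 arrays). This call ended without re-fed 1 (1.46, adjusted p = 0.052, limma) and without re-fed 3 (1.48, adjusted p = 0.05, limma). Against P2 the difference was 0.10 ± 0.32 (95% interval -0.59 to 0.79, adjusted p = 0.85, limma).

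The Nupr1 window, on the minus strand of chr1:190645852-190646151, is shown because it holds the same composite ATF4 and C/EBP motif as that of Gadd45g, in capitals, 55 bases before the start. It was matched by symbol, since the gene identifiers of the array annotation and RefSeq differ.
Nupr1: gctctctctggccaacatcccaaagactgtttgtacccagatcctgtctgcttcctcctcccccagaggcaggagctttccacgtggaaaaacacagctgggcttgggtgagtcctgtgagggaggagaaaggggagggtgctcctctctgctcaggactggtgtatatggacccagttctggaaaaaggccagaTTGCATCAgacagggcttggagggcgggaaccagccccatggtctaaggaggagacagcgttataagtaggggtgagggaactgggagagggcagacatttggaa
Of the 7 windows, these 2 hold the motif.

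Of 24 listed genes of the ATF4 stress response, 23 were measured. At P3 against fed 9 of them rose and 3 fell, beside 15.5% and 10.8% of all genes. The rises were led by Ddit4 (4.37 ± 0.18), an inhibitor of mTORC1, Chac1 (3.35 ± 0.32), which degrades glutathione, the transcription factor Atf3 (3.16 ± 0.22) and Trib3 (2.75 ± 0.23), a pseudokinase that dampens AKT. Atf4 itself rose at P2 (0.53 ± 0.16) and P3 (1.53 ± 0.16). The median of the list at P3 was 0.06, against 0.04 over all genes. After re-feeding, Asns, asparagine synthetase, was the 1 gene of the 23 called against fed livers (1.76 ± 0.22, adjusted p = 4.6e-04, limma), while Ddit4 had 0.24 ± 0.18 and Trib3 0.10 ± 0.23. Of all genes, 3.72% were called higher there and 0.742% lower. Nearest to Nupr1 in pattern were Ptpn2, a tyrosine phosphatase, Mob4 and E2f5, at 0.39, 0.39 and 0.41 log2 units, where the median over all genes was 1.23.

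Follistatin was high at P3. Fst (transcript cluster 7204090) read 3.71, 4.04, 3.81 and 3.67 in fed livers, 3.82, 3.83, 3.85 and 4.02 at P2, and 3.80, 3.59, 3.78 and 3.65 after re-feeding. At P3 it read 8.73, 7.82, 8.55 and 8.96, more than 3 units above every other liver. The P3 mean was 4.71 ± 0.18 over the fed mean and 4.64 ± 0.18 over the P2 mean. The mean of this row over the 16 arrays was not above the median of the tested rows, and its fed and P2 signals are not shown to be above background, so no fold is given. P2 livers differed from fed ones by 0.07 ± 0.18. Re-fed livers differed detectably neither from fed (-0.10 ± 0.18, 95% interval -0.49 to 0.29, adjusted p = 0.89, limma) nor from P2 livers (-0.17 ± 0.18, adjusted p = 0.52).

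Several genes of the activin subunits, whose products follistatin binds, were low at P3. Inhbe, the activin E subunit made by hepatocytes, read 9.65, 9.59, 9.38 and 10.04 in fed livers and 3.61, 3.58, 4.23 and 3.35 at P3, with no overlap. At P2 it read 6.39, 5.37, 8.40 and 5.99, a wide range that lay below all fed and above all P3 livers. The changes from fed were -3.13 ± 0.45 at P2 and -5.97 ± 0.45 at P3. Inhbc, the activin C subunit, had -0.82 ± 0.23 at P2 and -4.58 ± 0.23 at P3, where its level went from 9.66 ± 0.32 in fed to 5.08 ± 0.36 in P3 livers (SD, n = 4). Inhba, the subunit of activin A, fell at P2 (-1.98 ± 0.23) and P3 (-2.60 ± 0.23). Inhbb, the subunit of activin B, rose at P2 (0.52 ± 0.13) and had 0.20 ± 0.13 at P3, which was not called. After re-feeding, Inhbe (-0.45 ± 0.45) and Inhbc (-0.61 ± 0.23) were not called against fed livers, while Inhba was lower (-1.16 ± 0.23, adjusted p = 0.0098, limma).

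**Figure D4:**
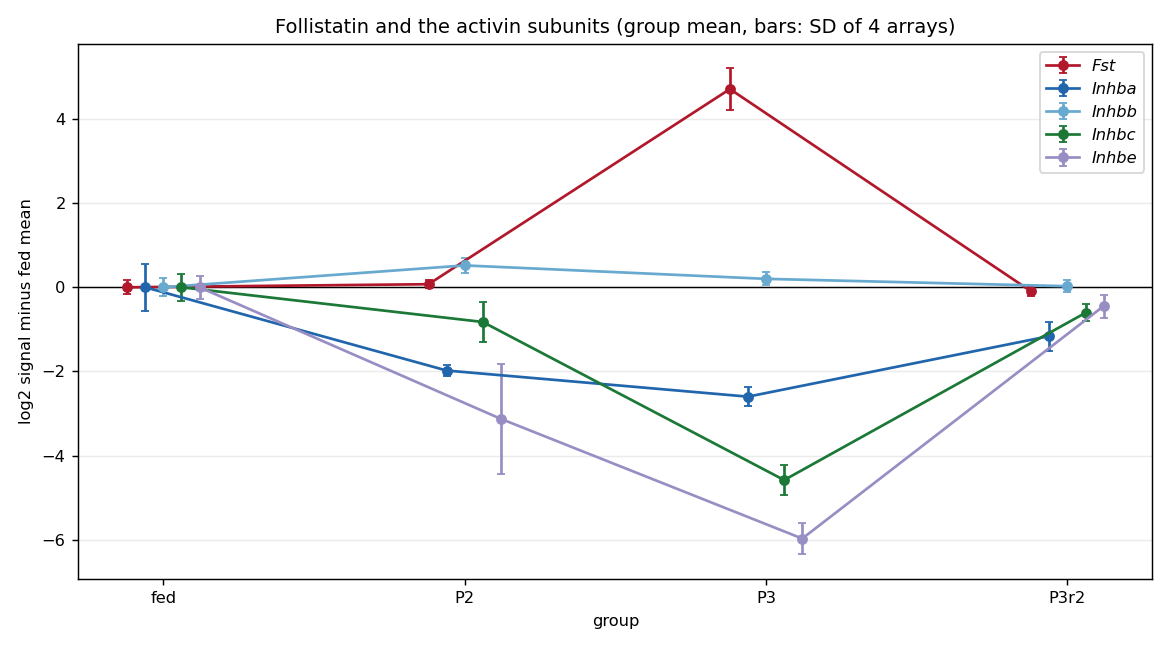
Group means of the log2 signal of Fst and of 4 activin subunit genes, minus each gene's fed mean (vertical axis), by group (horizontal axis); bars are the SD of 4 arrays. At P3, Fst is 4.71 from its fed mean, while Inhba, Inhbc and Inhbe are -2.60, -4.58 and -5.97 from theirs.

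Over the whole activin list, 25 of 29 genes were measured, and at P3 2 rose and 4 fell (median 0.01), beside 15.5% and 10.8% of all genes. At P2, 1 rose and 7 fell, beside 8.07% and 9.4% of all genes. Tgfbr3, a coreceptor for inhibin and transforming growth factor beta, rose at P3 (1.68 ± 0.17), as did Smad4 (0.84 ± 0.16), the common mediator of these signals. Both were lower after re-feeding than at P3 (-1.55 ± 0.17 and -0.79 ± 0.16). Fstl3, a close relative of Fst, read 5.20 ± 0.09 in fed and 5.26 ± 0.22 in P3 livers (SD, n = 4). Nearest to Fst in pattern were Rdh16, a retinol dehydrogenase, Ddit4 and Pptc7, a mitochondrial phosphatase, at 0.32, 0.46 and 0.48 log2 units, where the median over all genes was 2.07. Nearest to Gadd45b were Rdh16, Fst and Pptc7, at 0.63, 0.66 and 0.85 log2 units, where the median over all genes was 2.59. Rdh16 had group means of 4.81, 4.83, 9.55 and 4.60 in fed, P2, P3 and re-fed livers.

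BIM was also high at P3. Bcl2l11 (transcript cluster 7232394) read 4.87, 4.21, 4.65 and 4.58 in fed livers, 5.01, 5.33, 4.80 and 4.73 at P2, and 4.02, 4.48, 4.80 and 4.25 after re-feeding. At P3 it read 7.89, 7.85, 6.30 and 7.90, so that P3 3 stood over 1 unit below the other 3 and still above every liver of the other groups. The P3 mean was 2.91 ± 0.30 over the fed mean, and without P3 3 the difference was 3.30. The fed and re-fed means (4.58 and 4.39) lay below the array medians. Such signals are not shown to be above background, so no fold is given. At P2 the difference from fed was 0.39 ± 0.30. Re-fed livers did not differ detectably from fed ones (-0.19 ± 0.30, 95% interval -0.83 to 0.45, adjusted p = 0.87, limma). Against P2 they had -0.58 ± 0.30 (adjusted p = 0.18, limma), which was called without P3 3 (adjusted p = 0.027), an array that enters this comparison through the shared spread alone.

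Its window, on the plus strand of chr3:135819792-135820091, is shown for the FoxO core motif (GTAAACA) in capitals, 204 bases before the start. Of the 7 windows it alone holds one, as do 3.76% of all windows.
Bcl2l11: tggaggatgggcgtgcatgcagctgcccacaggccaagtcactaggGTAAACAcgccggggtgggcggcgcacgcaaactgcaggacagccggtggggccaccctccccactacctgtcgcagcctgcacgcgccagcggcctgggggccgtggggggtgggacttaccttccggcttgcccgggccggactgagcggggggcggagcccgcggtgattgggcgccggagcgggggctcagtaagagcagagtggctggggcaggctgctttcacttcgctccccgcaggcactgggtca
None of the 7 windows held a cyclic AMP response element (TGACGTCA, in 1.91% of all windows), an AP-1 site (TGACTCA, 4.53%), an E2F site (TTTCCCGC, 1.03%) or a full glucocorticoid response element (searched by its full consensus, in 2 windows of all). A TATA box (TATAAA, 14.3%) was found in that of Gadd45g. All motifs were searched on both strands, and a window without a match says only that these letters are not in it.

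Of the rest of the BCL2 family, 18 of 20 listed were measured, and 3 rose and 1 fell at P3 (median 0.13), where 15.5% of all genes rose and 10.8% fell. Hrk, another BH3-only gene, rose by 1.68 ± 0.19, and Bnip3l, a mitophagy receptor, by 0.95 ± 0.16. Bmf, a further BH3-only gene, fell at P2 (-1.02 ± 0.17) and P3 (-1.26 ± 0.17), and was below fed after re-feeding (-1.45 ± 0.17, adjusted p = 2.8e-04, limma). Of the proteins that BIM binds, Bcl2l1, BCL-XL, rose by 0.61 ± 0.18 at P3, and Bcl2 (0.08 ± 0.13) and Mcl1 (0.25 ± 0.15) were not called. The genes nearest to Bcl2l11 in pattern were Irs2, Itpr1 and Igfbp5, at 0.39, 0.41 and 0.43 log2 units, where the median over all genes was 1.33. Irs2, an insulin receptor substrate that FoxO factors can induce, had group means of 5.71, 6.31, 8.97 and 5.54 in fed, P2, P3 and re-fed livers.

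Of 24 listed FoxO factors and targets, 23 were measured. At P3 against fed 15 of them rose and 2 fell, beside 15.5% and 10.8% of all genes. The median of the list was 0.78, against 0.04 over all genes. The rises were led by Igfbp1 (5.97 ± 0.22), an insulin-repressed carrier of IGFs, the coactivator Ppargc1a (5.10 ± 0.29), Irs2 (3.26 ± 0.27) and the transcription factor Klf15 (2.09 ± 0.21). Foxo1 (0.71 ± 0.23) and Foxo3 (0.51 ± 0.13) rose as well. Against P3, 17 were lower and 2 higher after re-feeding (median -0.997), beside 10.8% and 14.2% of all genes. Against fed livers, 6 of the 23 were then lower and 2 higher, beside 0.742% and 3.72% of all genes. Ppargc1a (1.09 ± 0.29) and Eif4ebp1 (0.59 ± 0.14), an inhibitor of translation, were the 2 that were higher (adjusted p = 0.042 and 0.027, limma). The lower ones included Igfbp1 (-1.93 ± 0.22), Pck1 (-3.18 ± 0.35) and G6pc1 (-1.67 ± 0.29), glucose-6-phosphatase (adjusted p = 2.3e-04, 1.8e-04 and 0.0044, limma).

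Of the BTG and TOB proteins and the deadenylases they recruit, 17 of 19 listed were measured. At P3 against fed 9 rose and 3 fell (median 0.44), beside 15.5% and 10.8% of all genes. Btg3 rose by 2.79 ± 0.40, Tob1 by 0.86 ± 0.19, and Cnot10, a subunit of the CCR4-NOT complex, by 0.90 ± 0.18. Btg1, another antiproliferative member, rose at P3 (0.84 ± 0.12) and was below fed after re-feeding (-0.56 ± 0.12, adjusted p = 0.017, limma).

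**Figure D5:**
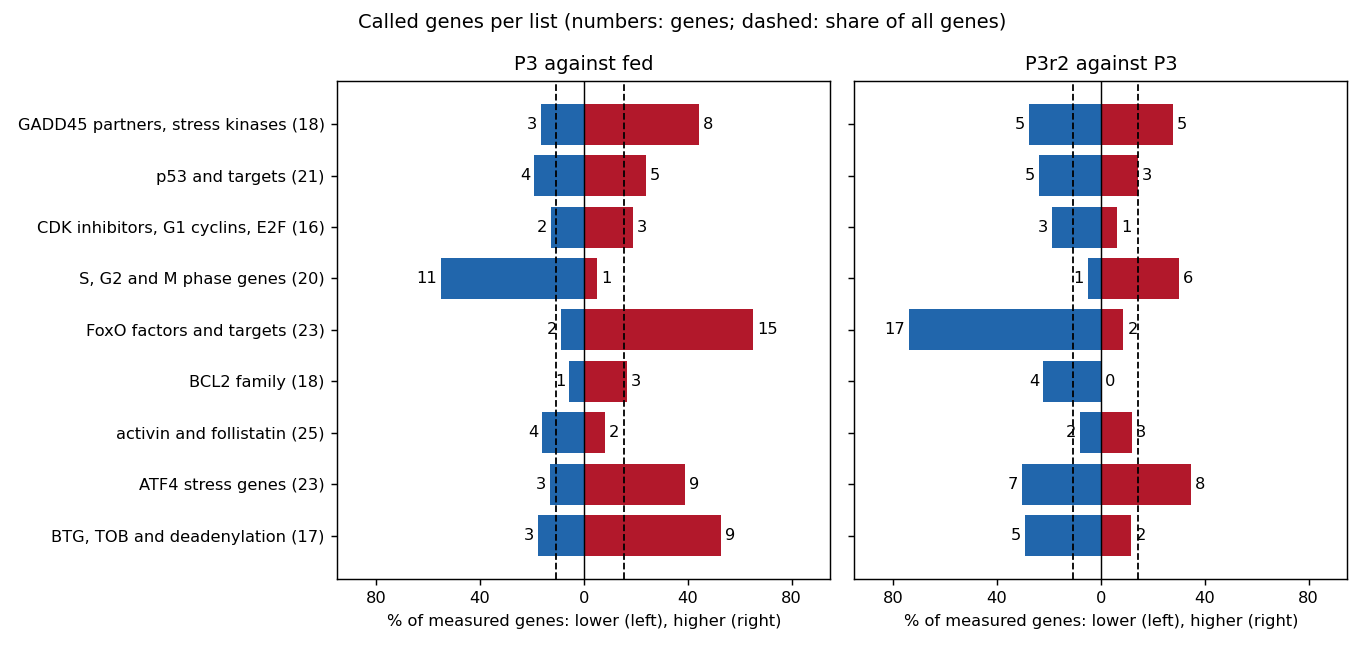
Share of the measured genes of 9 lists (vertical axis) called lower (left) or higher (right) in P3 against fed livers and in re-fed against P3 livers; dashed lines are the shares of all genes. For re-fed against P3 livers the lines stand at 14.2% higher and 10.8% lower. Against 15.5% higher and 10.8% lower of all genes at P3, 15 of 23 genes of the FoxO list were higher and 11 of 20 genes of S, G2 and M phase were lower. The lists were chosen with earlier results of these data known, so these shares are descriptions and no test.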

How the data were processed

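Liver RNA of 16 rats was measured on exon arrays, 1 array per rat and 4 rats in each of 4 groups, taken from the sample titles. The deposited series table holds 1 log2 value per transcript cluster and array. Per the submitters' processing notes, the authors used GCOS and Affymetrix Expression Console 1.1; the log base was read from the range of the values, and no genome build is named in the files. These deposited log2 values entered the fit unscaled. Of 19418 rows, the 13947 with an annotation entry were fitted with limma 3.58.1 (R 4.3.3), 1 mean per group, empirical Bayes and 6 two-sided contrasts. Benjamini-Hochberg adjustment ran over all 13947 rows, for each contrast on its own. Including the other 5471 rows was an alternative. Rows with 1 symbol numbered 13327, and those with several 620. The fit was also run on simulated data with independent normal noise for each row and array. Those data lack the array differences and the length trend of the real arrays, so they cannot test the fit against them. P-values set differences of group means against the spread of arrays within groups. With 1 array per rat, that spread holds differences between rats and technical ones together.

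The 10 genes and the gene lists were chosen with earlier results of these data known. From each list, up to 4 called genes per comparison were named by largest change, and for each of the 9 genes whose group means span at least 1 log2 unit the 3 nearest genes. Bcl2, Mcl1, Mdm2, Foxo1, Foxo3, Fstl3, Eif4ebp1 and the P3 value of Inhbb lie outside that rule and were named for their known function after their values were seen. Further values lie outside it as well. Among them are the P3 values of Map3k4, Btg1, Smad4 and Atf4, and the re-fed values of Ddit4 and Trib3 against fed. Alternatives covered normalization, variance model, array weights, samples in the fit, low rows, threshold, row per gene, replicate block, narrow arrays, array spread, gene length, rows tested and single arrays left out. Promoter windows are from RefSeq (GRCr8), and figures were drawn with matplotlib 3.10.9 (Python 3.11.15).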

Additional observations from a re-analysis of the deposited data

Results flagged for a closer look

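In each of the 9 genes and 4 groups, 36 sets of 4 arrays in all, the gap of the highest or lowest array to its nearest neighbour was set against the range of the group. A share above Dixon's critical value at the 95% level stands out, and chance gives that in about 1 in 20 groups. In 3 sets 1 array stood apart. Cdkn1a read 4.68 in re-fed 1, where the other re-fed livers read 5.95, 6.03 and 6.08. Without that array its difference from fed was -1.94 in place of -2.27. Bcl2l11 read 6.30 in P3 3, where the other P3 livers read 7.89, 7.85 and 7.90. The same liver was the highest of the P3 group for Gadd45a, Gadd45b, Gadd45g, Cdkn1a and Nupr1. It was the lowest for Ccnd1 and Cdkn1b as well, and its array was one of the 3 with the narrowest spread. Fst read 4.02 in P2 4, where the other P2 livers read 3.82, 3.83 and 3.85, and without it the P2 difference from fed was 0.025.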

How the results depend on the processing

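The fits were repeated under 14 other settings and without each of the 16 arrays in turn. Of the log2 changes of single genes, 718 kept their direction and their side of the threshold under other settings and 839 with single arrays left out. Others changed. At P2 against fed, 2 genes were called in place of 4 once the gene-length trend was removed (of 8, as Nupr1 has no length there). For re-fed against fed livers, 4 genes in place of 2 were called with quantile normalization and with array weights, and 1 with adjusted p below 0.01. With the length trend taken out it was 1 of 8, Cdkn1a, because Nupr1 was not in that fit. Without single arrays this count lay between 1 and 3, being 1 without re-fed 1 and without re-fed 3. Values that were not called turned sign: Fst at P2 against fed (-0.035 with the length trend taken out), Gadd45g in the same comparison (-0.20 without the 3 narrow arrays, -0.034 with the length trend taken out), Gadd45a in re-fed against P2 livers (-0.21 with quantile normalization, -0.035 with median centring) and Nupr1 in the latter (-0.20 with the spread as covariate). With single arrays left out, Cdkn1a at P2 against fed lay between -0.13 and 0.42, Gadd45g between -0.21 and 0.71, and Gadd45a in re-fed against P2 livers between -0.16 and 0.27. The causes were not tested. The labels do not say that replicate numbers pair the rats. Between groups, 7 of 24 same-numbered pairs deviated together with a correlation above 0.1 (range -0.46 to 0.30). So did 20 of 72 differently numbered pairs (range -0.33 to 0.37). These correlations cannot settle whether rats were paired. With the replicate number as a block, the number of genes called was 4 at P2, 8 at P3 and 2 after re-feeding against fed, and 7, 4 and 8 for P3 against P2, re-fed against P2 and re-fed against P3.

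Counts over all rows moved more. At P2 against fed, 2399 rows were called, 905 with adjusted p below 0.01 and 1249 to 2973 without single arrays (the lowest 3 without fed 4, P2 2 and P2 4). For P3 against P2 they were 4071 and 2645. For re-fed against fed livers, 609 became 1893 with array weights, 199 at the stricter threshold and 282 to 742 without single arrays (the lowest 5 without fed 2 and each re-fed array). For re-fed against P2 livers, 2963 became 5020 with array weights, 1243 at the stricter threshold, 940 with the spread as covariate and 1731 to 3451 without single arrays (the lowest 4 without P2 4, re-fed 1, re-fed 2 and re-fed 3). Scaling moved the split of calls: for re-fed against fed livers 503 rows were higher and 106 lower, and with quantile normalization 240 and 213. Against P2 livers they were 2171 and 792, with quantile normalization 1475 and 1295, and with median centring 1982 and 1367. With 4 rats a group, small differences can be missed.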
